A study of Rattus norvegicus with 6 samples.

Results

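The 10 genes described here act in prostaglandin synthesis, breakdown and signaling, and they were followed in the kidneys of rats on a hyperammonemic or a normal diet. They are *Ptgs1*, *Ptgs2*, *Ptges*, *Ptges2*, *Ptgds*, *Ptgis*, *Hpgd*, *Ptger1*, *Ptger2* and *Ptger4*, given by symbol as members of the pathway. All 10 were among the 17051 genes in the files, and all 10 were among the 11553 genes that reached 30 estimated reads in at least 1 rat and were tested. Kidney RNA of 6 male Sprague Dawley rats was sequenced, 1 library per rat. The AL group (rats 61, 71 and 88) received powdered standard chow ad libitum. The HD group (rats 64, 67 and 69) received the same kind of chow mixed with 3 g per kg per day of amino acids in the proportions of hemoglobin. Both groups were fed for 7 days and then underwent surgery under isoflurane anesthesia. Ages are not given, and neither is the part of the kidney that was used for sequencing. Each rat is a separate animal, so *P* values here measure the spread between animals.

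Prostaglandins are short-lived lipids that act close to where they are made. Phospholipases release arachidonic acid from membranes, the cyclooxygenases Ptgs1 and Ptgs2 convert it to a common precursor, and terminal synthases turn this precursor into prostaglandin E, D, I and F or into thromboxane. Prostaglandin E is the main product of the kidney, made largely in the collecting duct and in interstitial cells of the medulla, and it acts through the EP receptors on blood flow, renin release and the handling of salt and water. Hpgd starts its breakdown.

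Estimated read totals ran from 12499938 to 30466453 per rat. Defining markers of the labelled tissue were abundant. *Lrp2* of the proximal tubule lay between 1791 and 2570 normalized CPM (estimated reads scaled to a common library size) and *Umod* of the thick ascending limb lay between 2721 and 4061. Of 11553 genes, 0 passed an adjusted *P* of 0.05 in edgeR's quasi-likelihood test (0% called), against 182 in DESeq2 (1.58%). At an unadjusted *P* below 0.05 in edgeR, 538 genes were higher in HD (4.66%) and 686 were lower (5.94%).

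None of the 10 prostaglandin genes passed the adjusted threshold in edgeR or in DESeq2. At an unadjusted *P* below 0.05, 1 of 10 was higher in HD (*Ptges*) and 1 of 10 was lower (*Ptgs1*) in both tools, where the shares over all genes were 4.66% and 5.94% in edgeR and 4.70% and 6.77% in DESeq2. The HD rats and the AL rats overlapped for every one of the 10 genes, while over all tested genes 7.25% lay wholly higher and 7.01% wholly lower in HD. Of the 10 genes, 4 had a positive and 6 a negative log2 fold change, HD minus AL, and their median was -0.14 beside 0.01 over all tested genes. In the plot of values by rat, the widest spreads belong to *Ptgs1* and *Ptgs2* in the AL group and to the genes of lowest level.

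**Figure D1:**
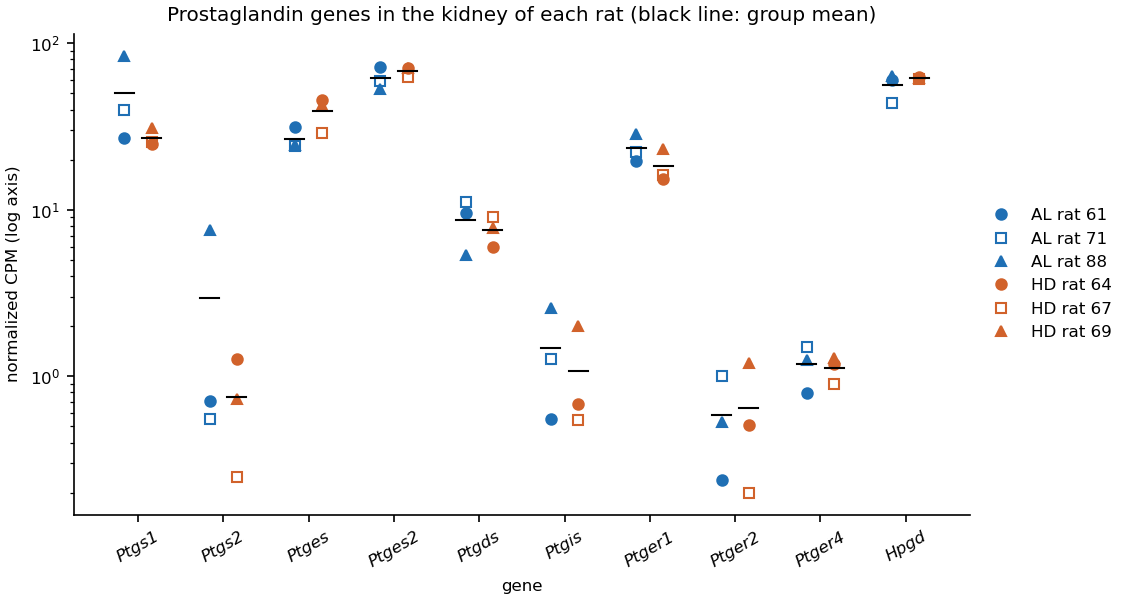
Normalized CPM (log axis) of the 10 prostaglandin genes in each of the 6 rats, with AL rats in blue, HD rats in orange and the group mean as a black line. AL rat 88 stands above the other 5 rats for *Ptgs1* (84.3 CPM) and *Ptgs2* (7.61 CPM), and the groups overlap for every gene.

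Promoter sequences are shown for the 3 members with the largest absolute fold changes, *Ptgs1*, *Ptgs2* and *Ptges*, as the 250 bases before the annotated start of each gene, 5′ to 3′ on the gene's strand, from RefSeq on build GRCr8. They lie at chr3:39981169-39981418 (plus strand), chr13:64713813-64714062 (plus strand) and chr3:34586988-34587237 (minus strand). Capitals mark matches to a searched motif on either strand.
Ptgs1: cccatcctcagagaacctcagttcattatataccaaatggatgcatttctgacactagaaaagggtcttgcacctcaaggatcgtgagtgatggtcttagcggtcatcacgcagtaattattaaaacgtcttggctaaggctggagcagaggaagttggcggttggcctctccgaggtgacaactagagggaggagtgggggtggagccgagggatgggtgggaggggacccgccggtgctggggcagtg
Ptgs2: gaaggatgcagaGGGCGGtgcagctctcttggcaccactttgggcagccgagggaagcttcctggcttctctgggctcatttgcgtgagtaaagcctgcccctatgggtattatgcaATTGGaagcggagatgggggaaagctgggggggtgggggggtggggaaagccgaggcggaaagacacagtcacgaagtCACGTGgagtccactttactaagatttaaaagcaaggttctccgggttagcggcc
Ptges: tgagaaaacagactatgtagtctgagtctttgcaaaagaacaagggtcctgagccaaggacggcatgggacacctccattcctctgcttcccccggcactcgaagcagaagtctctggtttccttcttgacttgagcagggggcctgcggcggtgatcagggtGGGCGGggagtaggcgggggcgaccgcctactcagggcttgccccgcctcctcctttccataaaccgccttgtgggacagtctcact
The motifs were searched on both strands, with positions counted back from -1 at the last base before the start. They were the TATA box TATAAA, found in 12.9% of 33469 promoter windows of 250 bases, the GC box GGGCGG (30.5%), the E-box CACGTG (5.59%), the short cyclic AMP response element CGTCA (18.2%) and the CCAAT box CCAAT (34%). The *Ptgs2* window held a GC box at -238, a CCAAT box at -133, read on the opposite strand, and an E-box at -55, with no overlap among them. The *Ptges* window held a GC box at -87, and the *Ptgs1* window held none of these letters. GC content was 54.4% for *Ptgs1*, 57.2% for *Ptgs2* and 58.8% for *Ptges*, beside a median of 51.2% over all windows. Windows were found for 8 of the 10 members. Those of *Ptgds* and *Ptger1* also held GC boxes, that of *Ptger1* a CCAAT box at -10, and that of *Hpgd* a GC box at -99 and a CGTCA at -136, while the windows of *Ptger2* and *Ptger4* held no match. *Ptges2* and *Ptgis* were not matched. A match describes letters in these windows and says nothing of binding in these kidneys.

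Both cyclooxygenase genes were highest in AL rat 88. *Ptgs1*, which encodes the constitutive cyclooxygenase (11 exons, rn5 chr3:20869942-20891509), measured 27.1, 39.6 and 84.3 normalized CPM in AL rats 61, 71 and 88. It measured 25, 25.5 and 30.8 CPM in HD rats 64, 67 and 69. The HD rats lay close together, the AL rats were spread over a wide range, and HD rat 69 exceeded AL rat 61. Group means were 50.3 ± 30.1 CPM in AL and 27.1 ± 3.23 in HD (SD, n = 3 each). The resulting log2 fold change was -0.89 with an SE of 0.38 (95% interval -1.78 to -0.0018). In edgeR the unadjusted *P* was 0.0496 and the adjusted *P* 0.47, and the exact permutation test (two-sided, smallest *P* of 0.1 for 3 against 3) gave 0.2. Rat 88 held most of this difference: without it the AL mean was 33.3 CPM and the log2 fold change -0.29 (SE 0.21). Leaving out each of the other rats in turn gave -1.19 to -0.84. In edgeR the unadjusted *P* of *Ptgs1* was 0.00736 without rat 61 and 0.0459 without rat 71, and it was 0.0725 to 0.204 without any 1 of the other 4.

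*Ptgs2*, the inducible cyclooxygenase, which in kidney is known from the macula densa and the medullary interstitium, was close to the floor in 5 of 6 rats. The estimated reads were 9, 10 and 115 in AL rats 61, 71 and 88, and 15, 5 and 23 in HD rats 64, 67 and 69. As normalized CPM these were 0.715, 0.554 and 7.61 in AL and 1.27, 0.25 and 0.735 in HD. Only rat 88 stood apart, and the other 2 AL rats lay within the HD range. The log2 fold change was -2.02 with an SE of 1.09 (95% interval -4.56 to 0.51, edgeR adjusted *P* = 0.564). Without rat 88 it turned to 0.22 (SE 0.81), with means of 0.635 CPM in AL and 0.753 in HD, so no direction can be given for *Ptgs2*. The gene model used for *Ptgs2* (10 exons, rn5 chr13:72316370-72322060) is 1815 bases long, which is exactly 605 codons, so reads from untranslated ends may not have been counted.

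On the TPM scale, which corrects for transcript length, *Ptgs1* was above *Ptgs2* in every rat. *Ptgs2* made up 3.91%, 2.11% and 12.3% of the summed TPM of both cyclooxygenases in AL rats 61, 71 and 88, and 7.33%, 1.48% and 3.56% in HD rats 64, 67 and 69. The share of *Ptgs2* was highest in rat 88, where both genes were highest, and the 2 groups overlapped. Both levels come from the gene models in the files, and that of *Ptgs2* may lack the untranslated ends.

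*Ptges*, the inducible membrane synthase of prostaglandin E that works with Ptgs2, had the largest positive difference of the 10 genes. It measured 31.2, 24.3 and 24.6 normalized CPM in AL rats 61, 71 and 88, and 45.7, 29 and 42.4 CPM in HD rats 64, 67 and 69. Rats 64 and 69 were above every AL rat, and HD rat 67 was below AL rat 61. Means were 26.7 ± 3.89 CPM in AL and 39 ± 8.84 in HD (SD, n = 3 each). The *Ptges* log2 fold change was 0.55 with an SE of 0.20 (95% interval 0.08 to 1.01). In edgeR the unadjusted *P* was 0.0263 and the adjusted *P* 0.409, and the exact permutation test (two-sided) gave 0.2. The fold change stayed positive with each rat left out in turn, between 0.42 and 0.72. In edgeR the unadjusted *P* of *Ptges* was 0.0186 without rat 61 and 0.00373 without rat 67, and it was 0.0736 to 0.0927 without any 1 of the other 4. *Ptges* has 3 exons and lies on the minus strand at rn5 chr3:15086726-15098070.

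*Ptges2*, a second membrane-bound prostaglandin E synthase, measured 72.1, 59.4 and 53.2 CPM in AL rats 61, 71 and 88 and 70.8, 62.3 and 70.9 in HD rats 64, 67 and 69. The HD values sat inside the AL range, and the log2 fold change was 0.14 (SE 0.14, 95% interval -0.18 to 0.47, edgeR adjusted *P* = 0.778). The interval of *Ptges2* thus reached from slightly lower to about the fitted change of *Ptges*. *Ptges* as a share of the summed TPM of both genes was 41.8%, 40.5% and 43.4% in AL rats 61, 71 and 88, and 51.7%, 43.6% and 49.8% in HD rats 64, 67 and 69. These shares did not overlap between the groups, but HD rat 67 and AL rat 88 were next to each other. When the cytosolic synthase gene *Ptges3* was added to the sum, the share of *Ptges* was 8.8% to 9.25% in AL and 9.16% to 16.7% in HD, and the groups overlapped.

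The TPM ratio of *Ptges* to *Ptgs1* combined the largest positive difference with the larger of the well-measured negative ones. It was 2.62, 1.4 and 0.664 in AL rats 61, 71 and 88, and 4.16, 2.58 and 3.12 in HD rats 64, 67 and 69. AL rat 61 lay just above HD rat 67, so the ratio overlapped between the groups. The ratio was chosen after the values of both genes were seen and was not tested.

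*Ptgds*, the lipocalin-type prostaglandin D synthase, measured 9.61, 11.2 and 5.36 CPM in AL and 5.94, 9.04 and 7.77 in HD, in the same order of rats. The lowest and the highest value were both in AL rats. Its log2 fold change was -0.20 (SE 0.31, 95% interval -0.92 to 0.53, edgeR adjusted *P* = 0.883). *Ptgis*, the prostacyclin synthase of vessel walls, was near the floor, with 7, 23 and 39 estimated reads in AL and 8, 11 and 63 in HD. It ranged from 0.556 to 2.58 CPM in AL and from 0.55 to 2.01 in HD, and the highest rat of each group was well above the other rats of that group. The log2 fold change of *Ptgis* was -0.40 (SE 0.70, 95% interval -2.03 to 1.24), and it turned to 0.27 without AL rat 88. The interval covered differences in either direction, so no direction can be given for *Ptgis* at this depth and spread.

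*Hpgd*, the 15-hydroxyprostaglandin dehydrogenase that starts the breakdown of prostaglandins, was the most evenly expressed member in HD. It measured 60.4, 43.8 and 63.3 CPM in AL rats 61, 71 and 88, and 62.9, 61.3 and 62.1 in HD rats 64, 67 and 69. Rat 71 alone was low. The log2 fold change was 0.15 (SE 0.15, 95% interval -0.20 to 0.50, edgeR adjusted *P* = 0.783), and without rat 71 it was 0.01.

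**Figure D2:**
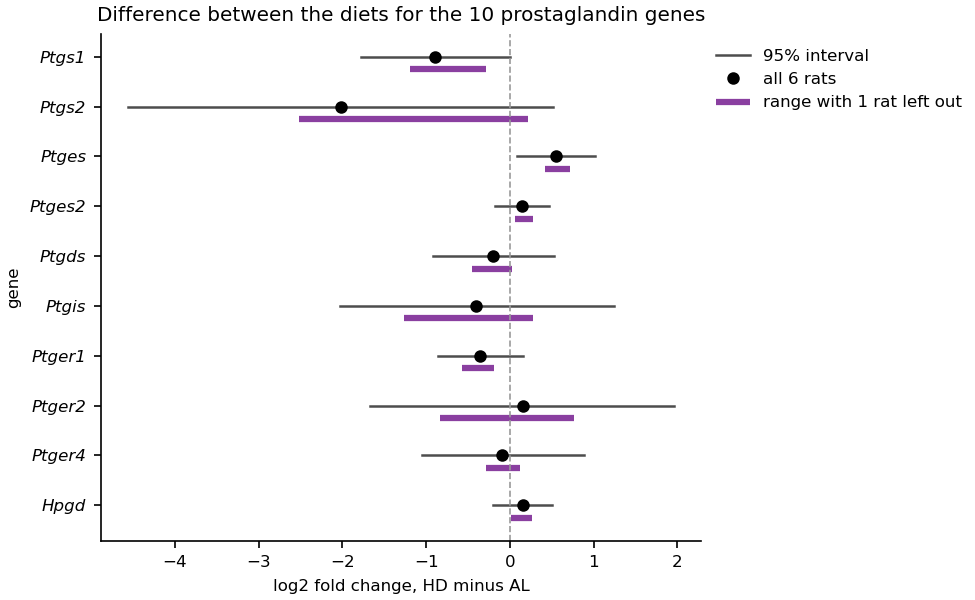
Log2 fold change, HD minus AL, of the 10 prostaglandin genes from edgeR (points, all 6 rats) with the 95% interval (thin lines) and the range obtained with 1 rat left out in turn (thick bars). *Ptges* (0.55) lies above 0 over its whole interval, *Ptgs1* (-0.89) ends its interval at 0, and the left-out range of *Ptgs2* runs from -2.52 to 0.22.

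The plot of fold changes shows how unequally the members were determined. The standard error was 0.14 for *Ptges2* and 0.15 for *Hpgd*, which were abundant, and 0.70 to 1.09 for *Ptgis*, *Ptger2* and *Ptgs2*, which had under 10 estimated reads in at least 1 rat. AL rat 88 had the highest value for 5 of the 10 genes, AL rat 71 for 2, and HD rat 67 for 0.

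Among the receptors of prostaglandin E, *Ptger1* (EP1, a calcium-linked receptor of the collecting duct) measured 19.5, 22.2 and 28.4 CPM in AL rats 61, 71 and 88. It measured 15.3, 16.1 and 23.1 CPM in HD rats 64, 67 and 69. HD rats 64 and 67 were below all AL rats, and HD rat 69 was within the AL range. The log2 fold change was -0.36 (SE 0.22, 95% interval -0.86 to 0.15, edgeR adjusted *P* = 0.62), and it stayed negative with each rat left out, from -0.57 to -0.19.

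*Ptger2* and *Ptger4* encode EP2 and EP4, which raise cyclic AMP. *Ptger2* had 3, 18 and 8 estimated reads in AL rats 61, 71 and 88 and 6, 4 and 38 in HD rats 64, 67 and 69, or 0.238 to 0.998 CPM in AL and 0.2 to 1.21 in HD. Its log2 fold change of 0.15 had an SE of 0.78 (95% interval -1.67 to 1.96) and took either sign as rats were left out, from -0.84 to 0.77. *Ptger4* had 10, 27 and 19 estimated reads in AL and 14, 18 and 40 in HD, or 0.794, 1.5 and 1.26 CPM and 1.19, 0.899 and 1.28 CPM. The *Ptger4* values of HD lay within the range of AL, and the log2 fold change was -0.09 (SE 0.41, 95% interval -1.05 to 0.88).

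*Ptger3*, which encodes the EP3 receptor known from the thick ascending limb and is not among the 10 genes, completes the family. It measured 11.1, 25.7 and 10.7 CPM in AL rats 61, 71 and 88 and 12.1, 10.7 and 20.1 in HD rats 64, 67 and 69. One rat of each group was high, and the log2 fold change was -0.14 (SE 0.40, edgeR adjusted *P* = 0.945). Over the summed TPM of the 4 EP receptor genes, *Ptger3* made up 38.2% to 64% and *Ptger1* 30.6% to 56.3% in the 6 rats. *Ptger4* held 2.94% to 4.55% and *Ptger2* 0.898% to 3.19%. Every rat thus had nearly all of its EP receptor mRNA as *Ptger1* and *Ptger3*, and which of these came first varied: *Ptger1* in AL rat 88 and *Ptger3* in the other 5 rats.

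**Figure D3:**
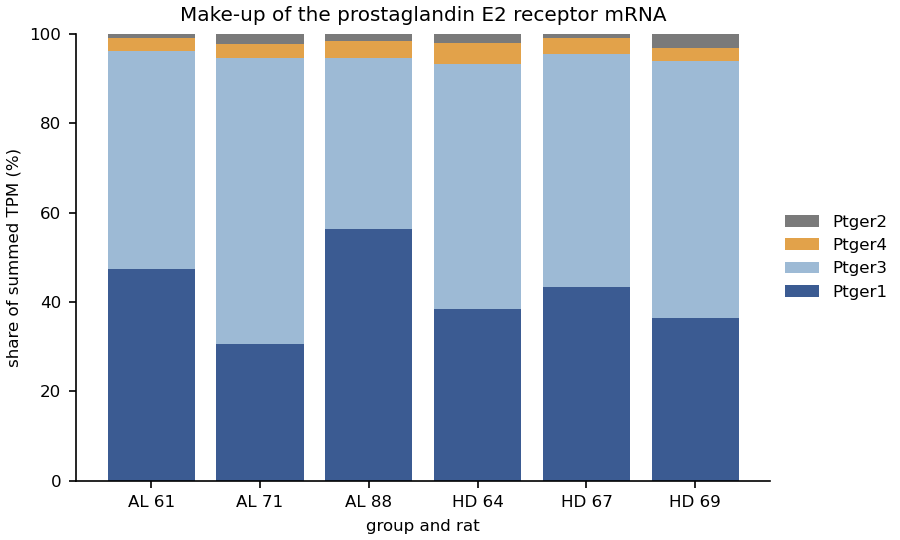
Share (%) of the summed TPM of the 4 EP receptor genes held by each of *Ptger1*, *Ptger2*, *Ptger3* and *Ptger4*, as 1 stacked bar per rat that adds up to the whole. *Ptger1* ranges from 30.6% to 56.3% and *Ptger3* from 38.2% to 64%, and *Ptger2* and *Ptger4* form a thin band in all 6 rats.

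Ordered by mean TPM over the 6 rats, the 10 genes ran from *Hpgd* (55 ± 5.82 TPM, SD, n = 6) over *Ptges2* (49.4 ± 5.09), *Ptges* (41.5 ± 10.9), *Ptgs1* (22 ± 13.9), *Ptgds* (17.7 ± 5.48) and *Ptger1* (14.8 ± 4.23) to *Ptgs2* (1.64 ± 2.56), *Ptgis* (1.29 ± 0.905), *Ptger4* (1.25 ± 0.368) and *Ptger2* (0.745 ± 0.529). The step from *Ptger1* to *Ptgs2* was the 1 in this order that held in all 6 rats between neighbors. *Hpgd* exceeded *Ptges2*, *Ptges2* exceeded *Ptges*, and *Ptges* exceeded *Ptgs1* in 5 of 6 rats each. *Ptgs1* exceeded *Ptgds* in 3 of 6, so these neighbors did not differ beyond their spread. *Ptgs2*, *Ptgis* and *Ptger4* changed places from rat to rat as well.

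Markers of the inner medulla, where *Ptgs1* and prostaglandin E synthesis are known to be high, were lower in HD on average, as *Ptgs1* was. The summed level of the 5 inner medulla and osmolyte markers was 261, 405 and 677 normalized CPM in AL rats 61, 71 and 88, and 157, 168 and 216 in HD rats 64, 67 and 69. All 5 had a lower mean in HD at an unadjusted *P* below 0.05 in edgeR, beside 5.94% of all tested genes, none passed the adjusted threshold, and their median log2 fold change was -1.42. Only 2 of the 5 lay wholly lower in HD, beside 7.01% of all tested genes, and the groups overlapped for the others. *Akr1b1*, the aldose reductase that makes sorbitol in the medulla, measured 23.3, 99 and 390 CPM in AL and 23.3, 24 and 35.3 in HD. It ranked the AL rats as *Ptgs1* did, with rat 88 highest. *Slc14a2*, the urea transporter of the inner medullary collecting duct, measured 40.4, 145 and 122 CPM in AL and 20.3, 26.6 and 67.1 in HD, with rats 71 and 88 highest. The part of these markers in the *Ptgs1* and *Ptgs2* values was not tested. In whole tissue, fewer cells of a type and less RNA per cell cannot be told apart.

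**Figure D4:**
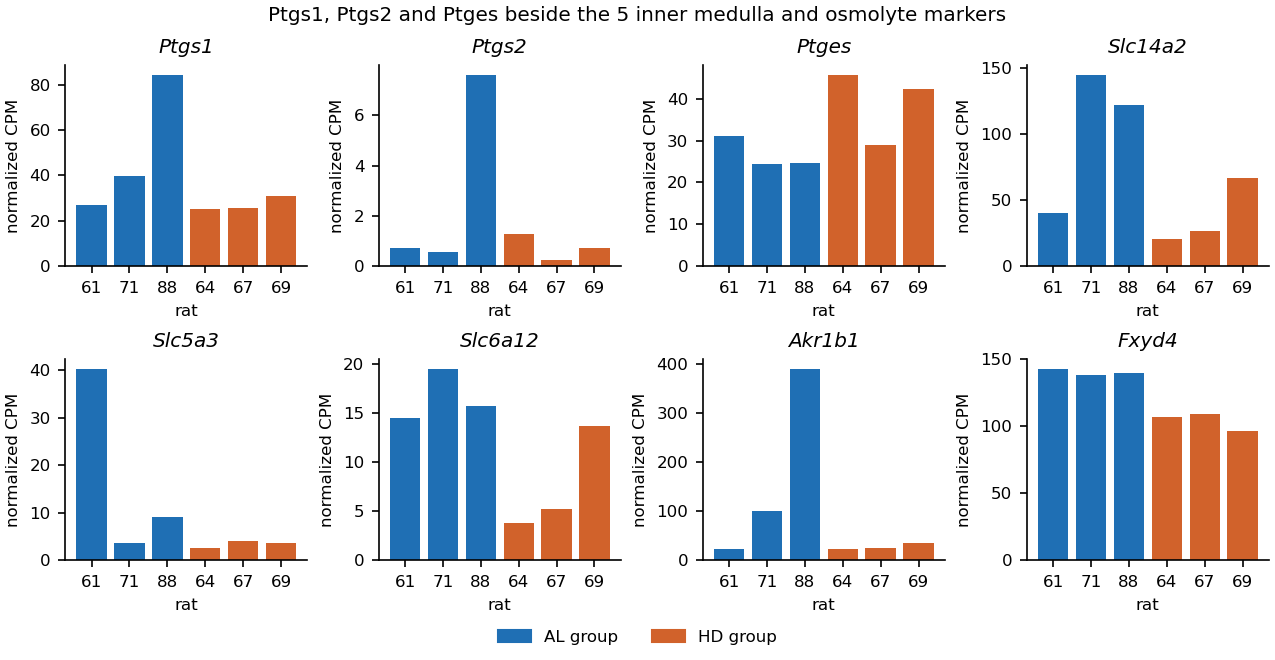
Normalized CPM in each rat (bars from 0, AL in blue, HD in orange) of *Ptgs1*, *Ptgs2* and *Ptges* and of the 5 inner medulla and osmolyte markers. *Ptgs1* (84.3), *Ptgs2* (7.61) and *Akr1b1* (390) share their highest bar in AL rat 88, whereas *Slc14a2* (145) is highest in AL rat 71 and *Slc5a3* (40.3) in AL rat 61.

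The 5 markers did not share 1 highest rat within AL. *Slc5a3*, the myo-inositol carrier, was highest in AL rat 61, *Slc6a12*, the betaine carrier, in AL rat 71 like *Slc14a2*, and *Fxyd4*, which also stands in the list of principal cell markers, was even across AL. The 7 principal cell markers of the collecting duct, where *Ptgs1* and *Ptger1* are also expressed, summed to 1549 to 1699 CPM in AL and 1434 to 1804 in HD. This sum joins genes of both directions. At an unadjusted *P* below 0.05 in edgeR, 2 of 7 were higher and 3 of 7 lower in HD, beside 4.66% and 5.94% of all tested genes. Leukocyte markers summed to 315, 712 and 470 CPM in AL and 230, 172 and 360 in HD, with all 7 lower in HD and 4 of 7 at an unadjusted *P* below 0.05 (5.94% of all tested genes). Stromal fibroblast markers summed to 189, 475 and 405 CPM in AL and 109, 184 and 236 in HD, with 3 of 7 lower at that *P*, against the same 5.94%. Each of these sums was lowest in an HD rat and overlapped between the groups. Of the 7 leukocyte markers, 3 lay wholly lower in HD, beside 7.01% of all tested genes. *Cd74*, which had the highest mean of that list in both groups, overlapped, with 197, 292 and 193 CPM in AL and 187, 116 and 263 in HD. The part of these lists in the results was not tested. Of the 5 adrenal cortex markers, *Cyp11b1*, *Cyp11b2*, *Star* and *Mc2r* were at 0 in at least 1 rat and the sum was 3.99 to 6.35 CPM in all 6. Most of this sum was *Cyp21a1*, which measured 3.73 to 5.9 CPM and was present in every rat.

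The upstream and side branches of the pathway were described from 6 further lists. Of 62 of their genes in the files, 43 were tested, 21 with a positive and 22 with a negative log2 fold change and a median of -0.02. None passed the adjusted threshold in edgeR. At an unadjusted *P* below 0.05, 2 of 43 were higher and 6 of 43 were lower in HD, beside 4.66% and 5.94% of all tested genes. Groups did not overlap for 1 of 43 that was higher and 4 of 43 that were lower, beside 7.25% and 7.01% of all tested genes. By both measures, genes higher in HD were near or under these shares, and genes lower in HD were above them. DESeq2 gave the same counts at an unadjusted *P* below 0.05, beside 4.70% and 6.77% of all tested genes. In DESeq2, 1 of 43, *Pla2g4a*, passed the adjusted threshold, beside 1.58% of all tested genes in either direction.

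The smallest unadjusted *P* of the 43 genes belonged to the release of arachidonic acid. *Pla2g4a*, the cytosolic phospholipase that supplies the cyclooxygenases, measured 13.3, 27.7 and 27.9 CPM in AL rats 61, 71 and 88 and 9, 6.35 and 12.7 in HD rats 64, 67 and 69. Every HD rat was below every AL rat, though HD rat 69 was only just below AL rat 61. Means were 23 ± 8.34 CPM in AL and 9.36 ± 3.2 in HD (SD, n = 3 each). The *Pla2g4a* log2 fold change was -1.29 with an SE of 0.35 (95% interval -2.12 to -0.47). Its *P* was 0.00728 unadjusted and 0.398 adjusted in edgeR, 0.0335 adjusted in DESeq2, and 0.1 in the exact permutation test, the smallest it can give. With each rat left out the fold change stayed between -1.59 and -1.07. *Pla2g4a* is the nearest gene to *Ptgs2* in the rn5 annotation, 143757 bases away.

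Of the other phospholipase genes, *Pla2g2a*, a secreted enzyme, measured 1.19, 3.38 and 4.1 CPM in AL and 1.19, 1.05 and 1.12 in HD (log2 fold change -1.38, SE 0.48, edgeR unadjusted *P* = 0.0233). AL rat 61 was level with HD rat 64 to 3 digits and the other AL rats were above every HD rat. *Mgll*, the monoacylglycerol lipase, was on the other side, with 117, 147 and 118 CPM in AL and 288, 178 and 139 in HD (log2 fold change 0.66, SE 0.26, edgeR unadjusted *P* = 0.0364). HD rat 69 fell within the AL range for *Mgll*. *Pla2g15*, a lysosomal phospholipase, had a log2 fold change of 0.17 (SE 0.14). Over the 9 release genes tested, the median was 0.15.

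Of the remaining synthases, *Ptges3* had a log2 fold change of -0.12 (SE 0.17), *Cbr1*, a carbonyl reductase that can convert prostaglandin E to F, -0.29 (SE 0.22), and *Fam213b*, a prostaglandin F synthase, 0.46 (SE 0.27). *Tbxas1*, the thromboxane synthase, measured 0.794, 3.21 and 2.25 CPM in AL and 0.594, 0.7 and 1.85 in HD, with a log2 fold change of -0.95 and a wide 95% interval of -2.43 to 0.54. *Hpgds*, the hematopoietic prostaglandin D synthase, had 24 reads in AL rat 71, 5 or fewer in each other rat, and was not tested. None of the 4 tested synthases had an unadjusted *P* below 0.05.

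*Ptgfr*, the receptor of prostaglandin F, measured 2.78, 3.88 and 3.64 CPM in AL rats 61, 71 and 88 and 1.78, 1.4 and 2.56 in HD rats 64, 67 and 69. Every HD rat was below every AL rat, with rats 69 and 61 close together. The log2 fold change of *Ptgfr* was -0.83 (SE 0.34, 95% interval -1.62 to -0.04, edgeR unadjusted *P* = 0.0415, adjusted *P* = 0.455). *Tbxa2r*, the thromboxane receptor, had a log2 fold change of -0.37 (SE 0.31), and HD rat 69 held its highest value. *Ptgir*, the prostacyclin receptor, reached 15 reads at most, and the prostaglandin D receptor genes *Ptgdr* and *Ptgdr2* reached 1 and 2 reads in any rat, so these 3 were not tested.

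Transport and breakdown genes other than *Hpgd* showed no difference beyond the spread. *Slco2a1*, which carries prostaglandins into cells, measured 19.9, 30 and 49.6 CPM in AL and 31, 29.7 and 64.8 in HD (log2 fold change 0.34, SE 0.40). *Abcc4*, an efflux pump that exports prostaglandins, had a log2 fold change of -0.23 (SE 0.26). The reductases that continue the breakdown gave -0.19 (SE 0.18) for *Ptgr1* and 0.03 (SE 0.16) for *Ptgr2*, and *Cbr3*, a carbonyl reductase, gave 0.29 (SE 0.33).

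**Figure D5:**
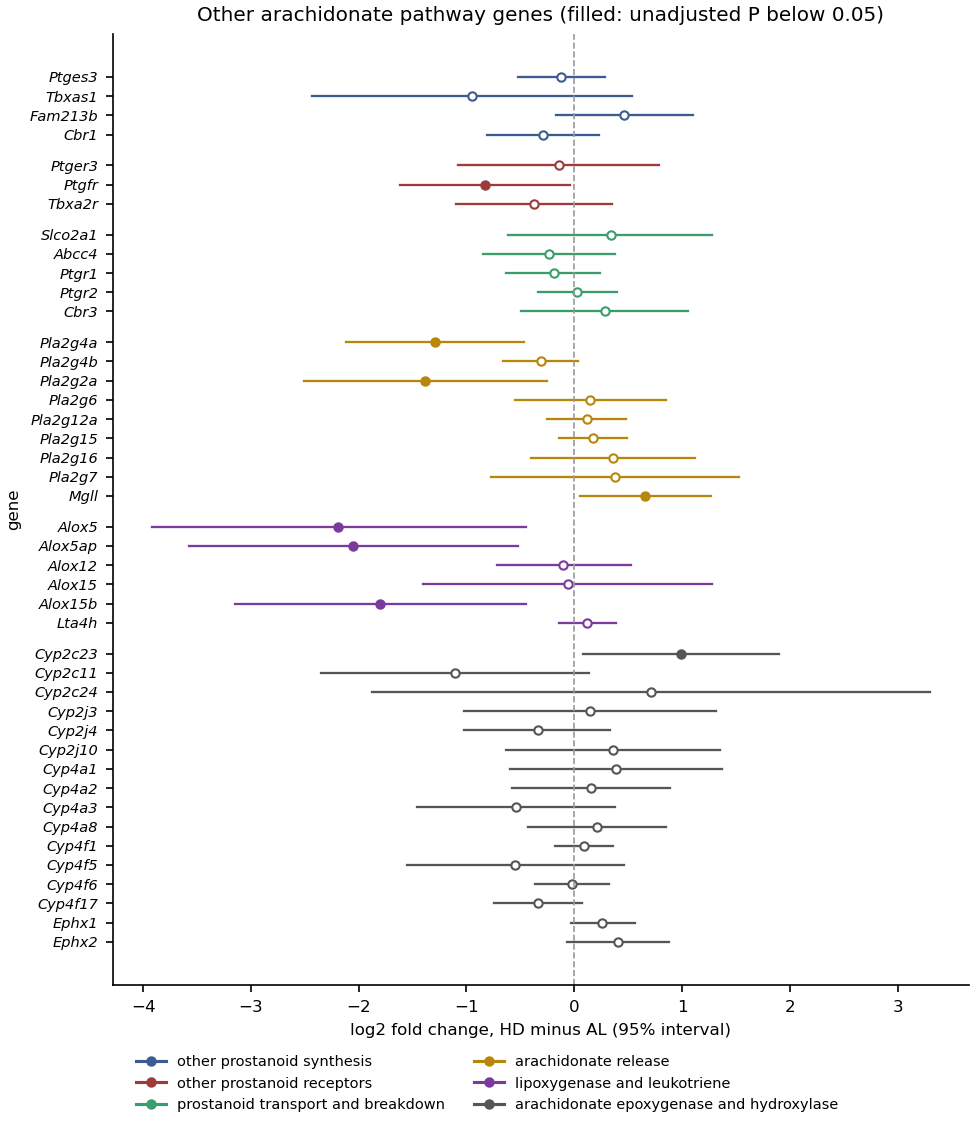
Log2 fold change, HD minus AL, with 95% intervals for the 43 tested genes of the 6 further arachidonate lists, colored by list, with filled points where the unadjusted *P* in edgeR is below 0.05. Of the 8 filled points, 6 lie below 0, among them *Pla2g4a* (-1.29) and *Ptgfr* (-0.83), and 2 lie above 0, *Mgll* (0.66) and *Cyp2c23* (0.99).

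As the plot of the 6 lists shows, the lipoxygenase and leukotriene genes had the lowest median log2 fold change of the 6 lists, -0.95 beside 0.01 over all tested genes. Of 6 tested, 3 were lower in HD at an unadjusted *P* below 0.05, beside 5.94% of all tested genes. The groups overlapped for all 6, while 7.01% of all tested genes lay wholly lower in HD. *Alox5ap* rests on few reads, with 18, 60 and 81 estimated reads in AL and 5, 9 and 45 in HD. *Alox5ap*, which presents arachidonic acid to the 5-lipoxygenase, measured 1.43, 3.33 and 5.36 CPM in AL and 0.424, 0.45 and 1.44 in HD (log2 fold change -2.05, SE 0.65, edgeR adjusted *P* = 0.406). The *Alox5ap* fold change was -2.92 without HD rat 69 and -1.55 without AL rat 88, its extremes over the 6 rats left out. *Alox15b*, another lipoxygenase, had a log2 fold change of -1.80 (SE 0.58, edgeR adjusted *P* = 0.406; -1.16 without AL rat 71), and *Lta4h*, the leukotriene A hydrolase, 0.12 (SE 0.11). Leukocytes express *Alox5ap*, and the leukocyte marker sums given above were lowest in HD rats 64 and 67, as was *Alox5ap* itself. Within AL the ranks differed, with the leukocyte sum highest in rat 71 (712 CPM) and *Alox5ap* highest in rat 88 (5.36 CPM). The part of leukocytes in the *Alox5ap* difference between the groups was not tested.

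The cytochrome P450 branch turns arachidonic acid into epoxides and hydroxy acids. *Cyp2c23*, the main arachidonic acid epoxygenase of rat kidney, measured 870, 274 and 634 CPM in AL rats 61, 71 and 88 and 1269, 1372 and 895 in HD rats 64, 67 and 69. The HD rats were above the AL rats, narrowly so for HD rat 69 against AL rat 61. The log2 fold change of *Cyp2c23* was 0.99 (SE 0.39, 95% interval 0.08 to 1.90, edgeR unadjusted *P* = 0.0367, adjusted *P* = 0.441). *Ephx1*, an epoxide hydrolase, had a log2 fold change of 0.26 (SE 0.13), *Cyp2c11* -1.11 (SE 0.53) and *Cyp4f17* -0.34 (SE 0.17), none with an unadjusted *P* below 0.05. Close relatives in the Cyp2c and Cyp4 families can share reads, so their values depend on how RSEM divided them. Over the 16 tested genes of this branch the median was 0.15. Markers of the proximal tubule, where *Cyp2c23* is known to be abundant, summed to 6085, 5207 and 4410 CPM in AL and 8008, 6847 and 5765 in HD. Of these 7 markers, 5 had a positive and 2 a negative log2 fold change. At an unadjusted *P* below 0.05 in edgeR, 3 of 7 were higher, beside 4.66% of all tested genes. *Slc34a1* had means of 1751 CPM in AL and 2852 in HD. The log2 fold change was 0.19 (SE 0.16) for *Lrp2* and -0.05 (SE 0.14) for *Cubn*. The part of these markers in the *Cyp2c23* values was not tested.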

How the data were processed

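Poly(A)-selected RNA was sequenced as single-end reads with a kit that does not mark strand. The authors quantified transcripts with RSEM 1.1.15 on UCSC gene definitions for rn5, and deposited estimated counts, their posterior means, TPM and FPKM per transcript for each rat. FPKM was not used, nor were length-scaled expression scores with bounds that the authors deposited beside it.

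Estimated counts were summed per gene and rounded. Genes with at least 30 in at least 1 rat were tested (the study's filter) with edgeR 4.0.16 (glmQLFit and glmQLFTest, TMM scaling, no covariates, Benjamini-Hochberg adjustment over all 11553 genes, threshold 0.05) in R 4.3.3. Normalized CPM uses TMM-scaled library sizes. Beside it stands an exact two-sided permutation test on log2(CPM + 0.5). The code was tested on simulated data. Alternatives were RLE factors, library size alone, no filter, at least 10 counts in every rat, DESeq2 1.42.0 (the study's tool), posterior mean counts, limma 3.58.1 on log2(TPM + 0.5), and each rat left out.

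The members and lists were chosen with earlier results of these data known. Named were every member, every other prostanoid synthesis, receptor, transport and breakdown gene in the files, and from each further list the 2 genes of smallest *P* in each direction. *Akr1b1*, *Slc14a2*, *Slc5a3*, *Slc6a12* and *Fxyd4* were named after their values were seen. The 6 libraries differed from each other beyond sampling noise (chi-square per degree of freedom of 20.3 to 67.2 over all pairs of rats, within and between groups). Every member has 1 transcript in the files and shares no exon with another gene. Sequences came from RefSeq on GRCr8, gene positions from the rn5 annotation of the files, and the builds were not mixed. Proteins were not used here. Values of 1 further gene are not reported here.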

Additional observations from a re-analysis of the deposited data

How the results depend on the processing

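Of 67 fold changes of the 10 members under the 7 alternatives other than leaving out a rat, 66 kept their direction and stayed on their side of the adjusted threshold, and *Ptger2* turned to -0.01 under limma on TPM. With a rat left out, 53 of 60 did. The exceptions were *Ptgs2* (range -2.52 to 0.22) and *Ptgis* (-1.27 to 0.27), positive without AL rat 88, *Ptgds* (-0.45 to 0.03), positive without AL rat 71, *Ptger4* (-0.29 to 0.12), positive without AL rat 71 or HD rat 67, and *Ptger2* (-0.84 to 0.77), negative without AL rat 61 or HD rat 69. The cause was not tested. Members at an unadjusted *P* below 0.05 were 0 higher and 0 lower under limma, and 0 to 1 higher and 0 to 2 lower with a rat left out. Over all genes, those past the adjusted threshold numbered 2 with no filter, 182 in DESeq2 and 0 to 4 with a rat left out. At an unadjusted *P* below 0.05, 317 were higher by library size alone and 299 under limma, against 257 to 730 higher and 330 to 1073 lower with a rat left out. By library size alone, the median of all genes went from 0.0067 to -0.074 on the log2 scale. In the 6 further lists, 1 gene was higher at that *P* by library size alone and 1 under limma, 0 to 4 were higher and 2 to 8 lower with a rat left out, and 1 passed the adjusted threshold in DESeq2 (*Pla2g4a*, -1.30). Other named genes that took both signs with a rat left out were *Ptges3* (-0.25 to 0.03), *Ptger3* (-0.47 to 0.40), *Slco2a1* (-0.13 to 0.76), *Abcc4* (-0.45 to 0.01) and *Ptgr2* (-0.06 to 0.20), and *Ptgr2* also turned by library size alone (-0.04) and under limma (-0.03). With at least 10 counts in every rat, *Ptgs2*, *Ptgis* and *Ptger2* were not tested. No paired analysis was possible because the rats of the 2 groups share no number in the labels. With 3 rats a group the exact test cannot give less than 0.1, and *Ptgs2*, *Ptgis*, *Ptger2* and *Ptger4* rest on few reads.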
